A study of Homo sapiens with 10 samples.

Results

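The core Rb promoters are the promoters of protein-coding genes that carried an Rb peak in every Rb library of both ovarian cancer lines, with and without a CDK2 inhibitor. A gene was a member when at least 1 peak overlapped the stretch from 2000 bp before to 500 bp after any of its annotated transcript starts in all 8 Rb peak lists, and 3762 of 19970 protein-coding genes on chromosomes 1 to 22 and X (18.8%) met this rule. Rb had been profiled by CUT&RUN, in which an antibody directs a nuclease to release DNA next to the bound protein, in wild-type OVCAR-3 and Kuramochi cells, established lines of high-grade serous ovarian cancer. Each line received INX-315, a CDK2 inhibitor, at 300 nM or the same volume of its solvent DMSO for 2 days. The 4 combinations of line and treatment had 2 Rb libraries each, and each line had 1 library made with the control antibody IgG2a from DMSO-treated cells. Both replicates of a group came from a single line, so p-values measure the spread between these libraries.

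Rb, the retinoblastoma tumour suppressor, has no DNA-binding domain that reads a sequence of its own and reaches promoters largely through E2F transcription factors, whose dimers with DP proteins bind short GC-rich sites. Bound Rb represses genes needed to enter S phase. Cyclin E and cyclin A with CDK2 phosphorylate Rb, which releases it from E2F, and an inhibitor of CDK2 is meant to keep Rb in its active, bound form.

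The members were chosen by the peak calls of these 8 libraries, so membership itself is a description with no test. Promoter peaks were called for 6016 and 7386 genes in the OVCAR-3 DMSO libraries and for 5255 and 7781 genes in the Kuramochi DMSO libraries. The INX-315 libraries had many more, at 11176 and 12954 genes in OVCAR-3 and 11942 and 11032 in Kuramochi. The DMSO libraries therefore nearly fixed the membership. A peak in all 4 DMSO libraries was found for 3764 genes, of which 3762 also had one in all 4 INX-315 libraries, whereas 9667 genes had a peak in all 4 INX-315 libraries. Of the 1773 genes that missed the rule by 1 library, 951 lacked a peak in Kuramochi DMSO 1 alone and 576 in OVCAR-3 DMSO 1 alone, and these were the lists with the fewest peaks (5221 and 6162). A further 9972 genes had a promoter peak in 1 to 7 libraries and 6236 had none. The IgG2a libraries held 25 and 12 peaks on these chromosomes, and none overlapped a core region.

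The rule has a sharp edge for weak peaks. RRAS2, a Ras-family GTPase gene just inside it, was called from 5 fragments at the summit in OVCAR-3 DMSO 1, with a −log10 q-value of 1.37 in that library. EGLN3 and SPTSSA share a peak that was called in OVCAR-3 DMSO 2 from 10 fragments at a −log10 q-value of 1.31. PEG10, an imprinted gene derived from a retrotransposon, fell just outside because Kuramochi DMSO 1 had no peak, although its other 7 libraries reached 12 to 244 fragments. MATN1 and FOLR3 missed the rule in the same library.

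**Figure D1:**
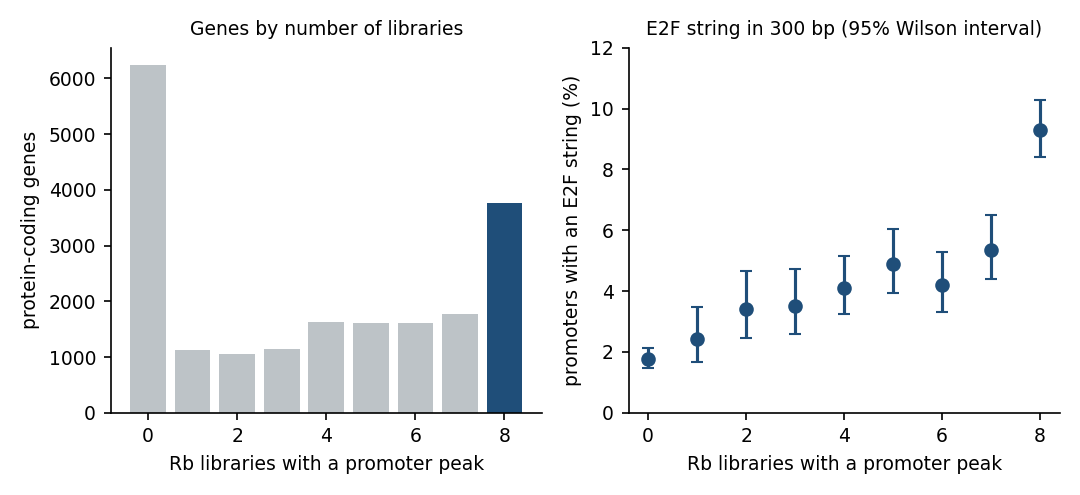
Left, number of protein-coding genes (y axis) by the number of Rb libraries with a promoter peak (x axis), with the 3762 core genes in dark blue. Right, percentage of these genes' promoters with an E2F string in 300 bp (y axis) against the same x axis, with 95% Wilson intervals as bars. The share rose from 1.78% of promoters with no peak to 5.36% at 7 libraries and 9.30% in the core set.

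The promoter sequences of the core set held E2F strings more often than those of genes bound less regularly. The strings searched on both strands were TTTCCCGC, TTTCGCGC, TTTGCCGC and TTTGGCGC, the usual spellings of the E2F consensus, in the 300 bp from 250 bp before to 50 bp after the start of 1 canonical transcript a gene. At least 1 was found in 350 of 3762 core promoters, or 9.30% (95% Wilson interval 8.42 to 10.3). The share was 4.13% in genes with a peak in 1 to 7 libraries, 1.78% in genes without one and 4.37% over all protein-coding genes. Genes bound in 7 of the 8 libraries stood at 5.36% (4.40 to 6.51), so the step from 7 to 8 libraries was outside both intervals, which cover counting error only.

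Core promoters were also compared with all genes bound in 1 to 7 libraries at similar CpG number. CpG dinucleotides numbered 29 in the median core promoter, against 27 in genes bound in 1 to 7 libraries and 5 in genes without a peak. When all promoters were divided at the quartiles of CpG number, 9.95%, 9.42% and 9.12% of core promoters had an E2F string in the upper 3 classes, compared with 4.11%, 4.75% and 4.24% of genes bound in 1 to 7 libraries. In the class with the fewest CpG, 6 of 124 core promoters did (4.84%). The same letters read backwards without complement (CGCCCTTT, CGCGCTTT, CGCCGTTT and CGCGGTTT) have equal composition and were in 6.25% of core promoters, 3.83% of those bound in 1 to 7 libraries and 3.52% of all promoters. In the upper 3 CpG classes this control string was also more frequent in core promoters, at 5.03%, 7.42% and 6.42% against 3.41%, 4.29% and 4.47%.

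Taken as a ratio of shares, other promoter elements separated the core set less from genes bound in some libraries. In percentage points, the more common CCAAT and SP1 strings differed more between these classes than the E2F string. The CCAAT string, read by the trimeric factor NF-Y, was in 44.0% of core promoters, 32.7% of promoters bound in 1 to 7 libraries and 36.0% of all. Matches to the CHR string TTTGAA, which MuvB complexes read in genes of the G2 and M phases, were in 8.48% of core promoters, 8.10% of those bound in 1 to 7 libraries and 18.8% of those without a peak. Strings for ETS factors (19.0% against 18.2%) and SP1 (80.8% against 74.4%) were common in both bound classes. A match only says that the letters are present, and it does not mark a site in use.

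Printed next are the stretches around the E2F string nearest the Rb summit for each group of genes described further on, in the highest core promoter of the group that had such a string within 100 bp of its summit, to show the strings in their setting. Promoters without a string there, such as those of GMNN, CLSPN, RRM2 and CCNE2, were passed over. All are from hg38 and are written 5′ to 3′ on the strand of the gene, with the string in capitals. GCGGGAAA and GCGGCAAA are TTTCCCGC and TTTGCCGC read on the opposite strand. The MCM7, LIG1, FANCG and NUSAP1 strings overlap annotated exons and are shown with few flanking bases, whereas those of TYMS, E2F1 and NASP lie outside exons.
MCM7, chr7:100101388-100101417, minus strand: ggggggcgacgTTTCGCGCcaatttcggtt
LIG1, chr19:48170440-48170469, minus strand: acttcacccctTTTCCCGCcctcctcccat
TYMS, chr18:657598-657652, plus strand: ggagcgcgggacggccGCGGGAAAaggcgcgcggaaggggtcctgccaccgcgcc
E2F1, chr20:33686386-33686478, minus strand: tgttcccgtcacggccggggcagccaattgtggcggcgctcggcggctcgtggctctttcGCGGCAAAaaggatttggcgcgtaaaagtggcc
FANCG, chr9:35079788-35079817, minus strand: tcctccccgagTTTCCCGCgggaactaact
NASP, chr1:45584710-45584837, plus strand: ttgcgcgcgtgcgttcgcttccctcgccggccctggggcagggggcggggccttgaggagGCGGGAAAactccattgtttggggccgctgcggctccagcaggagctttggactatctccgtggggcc
NUSAP1, chr15:41332696-41332725, plus strand: gttacaggcccTTTGGCGCctgcgtattcg

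The MCM7 string was centred 5 bp before the canonical start and 79 bp upstream of the median Rb summit. In TYMS the string lay 35 bp before the start and 19 bp upstream of the summit, and in E2F1 it lay 29 bp before the start and 38 bp downstream of the summit. The E2F1 region held 2 such strings within 100 bp of its summit. NASP differed from the others in that its string sat 733 bp downstream of the canonical start, again close to the summit (80 bp upstream).

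Overlapping peaks of all 8 libraries formed 3269 regions on the main chromosomes, of which 3050 lay at a core promoter. They served 3724 of the 3762 members, and the other 38 had peaks that did not join into 1 region shared by all libraries. A single member was served by 2346 regions, 2 members by 644 and 3 or more by 60. Rb summits sat close to transcript starts, which the rule and the use of the nearest of a gene's starts both favour. The median summit lay 22 bp upstream of the nearest start (quartiles 180 bp upstream and 73 bp downstream), and 78.7% of members had it within 250 bp. The summit position differed by 94.75 bp between replicates at the median region, by 107 bp between treatments within a line and by 106 bp between lines within a treatment.

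Divergent gene pairs were common. Of the core genes, 809 (21.5%) had the start of another protein-coding gene on the opposite strand within 1000 bp, compared with 10.1% of genes bound in 1 to 7 libraries, 1.19% of genes without a peak and 9.49% of all. A region between such a pair counts for both genes, and core genes also had more annotated starts (median 8 against 5 in other genes), which gives a peak more places to overlap. The core share of genes by chromosome ranged from 3.38% on X (29 of 859) to 25.8% on chromosome 14.

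**Figure D2:**
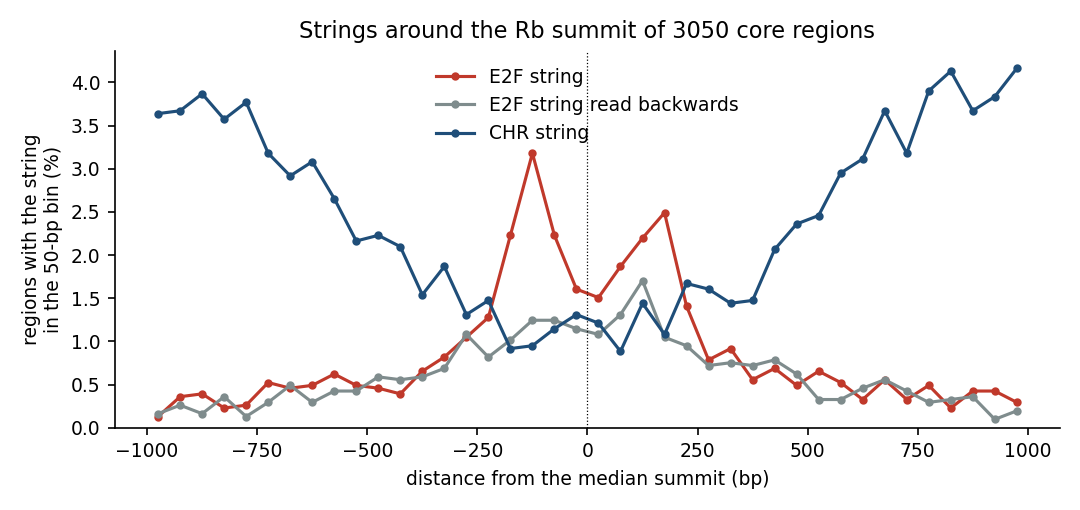
Percentage of the 3050 core regions with each string centred in a 50-bp bin (y axis) by distance from the median Rb summit (x axis, bp, in genome orientation). The E2F string was most frequent on both flanks of the summit, with 3.18% and 2.49% in the highest bin of each side, while its backward spelling stayed below both peaks and the CHR string TTTGAA was least frequent near the summit. The ETS string, not drawn, was also most frequent on both flanks.

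Strings were also counted around the summit itself. In the 200 bp centred on it, 203 of 3050 core regions (6.66%) held an E2F string. Regions with a peak in 1 to 7 libraries stood at 2.95%. Of the 219 regions that had a peak in all libraries but no core promoter, 9 held one (4.11%). The Wilson interval of that share, 2.18 to 7.62%, included the core share, so a difference between them was not shown. The backward spelling had the opposite order there, with 4.43% of core regions and 7.76% of the 219. It was in 2.43% of regions with a peak in 1 to 7 libraries. The plot of E2F strings by distance has a dip to 1.51% just at the summit. Its maxima were 3.18% at 100 to 150 bp to the left and 2.49% at 150 to 200 bp to the right. The dip was not particular to E2F. The ETS string had 3.38% and 3.41% at 100 to 150 bp to the left and right, and 1.80% at 0 to 50 bp. For the CCAAT string the same bins held 9.02%, 9.31% and 8.79%, with hardly any dip. Ordered by mean height, 12 of the 305 lowest regions (3.93%) and 38 of the 305 highest (12.5%) had the string within 100 bp of the summit. Between these ends the share did not rise steadily, with 8.20% in classes 4 and 5 of 10 equal height classes, 4.92% in class 6 and 5.57% in class 9. The backward spelling went from 4.26% in the lowest class to 6.89% in the highest.

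Peak height is given as the number of fragments at the summit divided by the genome-wide mean of fragments per base in that library, so it takes account of depth, and this mean ran from 0.380 to 0.502 in DMSO libraries and from 0.216 to 0.421 in INX-315 libraries. Counts at a summit were small. The median core region had 14 and 17 fragments in the OVCAR-3 DMSO libraries, 28 and 56 under INX-315, 13 and 18 in Kuramochi DMSO and 41 and 25 under INX-315. Single regions in the DMSO libraries are therefore imprecise. Heights of core regions correlated between replicates (Spearman's rho 0.796 to 0.911 across regions), less between treatments of a line (0.717 to 0.790), less again between lines under the same treatment (0.526 to 0.581) and least between libraries that differed in both (0.447 to 0.506). Regions are not independent replicates, and these values are descriptive.

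Core promoters ranked among the stronger peaks of each list, which the rule favours. The median member stood at percentile 66.8 to 79.1 of the list in DMSO libraries and 85.1 to 88.7 in INX-315 libraries. Its height in the 8 libraries exceeded that of the median other bound promoter, at 28.3 to 47.4 against 17.9 to 23.7 under DMSO and 91.4 to 133 against 34.6 to 47.6 under INX-315.

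INX-315 raised Rb at almost every core promoter. The median height over the 3050 core regions was 28.3 and 33.9 in OVCAR-3 DMSO, 91.4 and 133 in OVCAR-3 INX-315, 29.2 and 47.4 in Kuramochi DMSO and 101 and 116 in Kuramochi INX-315. All 4 INX-315 medians were above all 4 DMSO medians. The fold increase averaged over both lines had a median of 3.16 and a range from 5th to 95th percentile of 1.99 to 4.65, with a median of 3.45 in OVCAR-3 and 2.88 in Kuramochi. Height was called higher under INX-315 at 3039 of 3050 core regions and lower at none (limma, Benjamini-Hochberg adjusted p under 0.05), against a background of 99.4% called higher among all 3269 regions with a peak in every library. Within each line, the lower INX-315 value was above the higher DMSO value at 2962 core regions (97.1%, against 96.6% of all 3269). Both shares were close to those of all regions bound throughout, most of which are the core regions themselves. Heights were not scaled to any added reference DNA here, so a higher height is an enrichment over the library's own mean. More bound molecules per cell and more cells with bound Rb cannot be told apart.

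**Figure D3:**
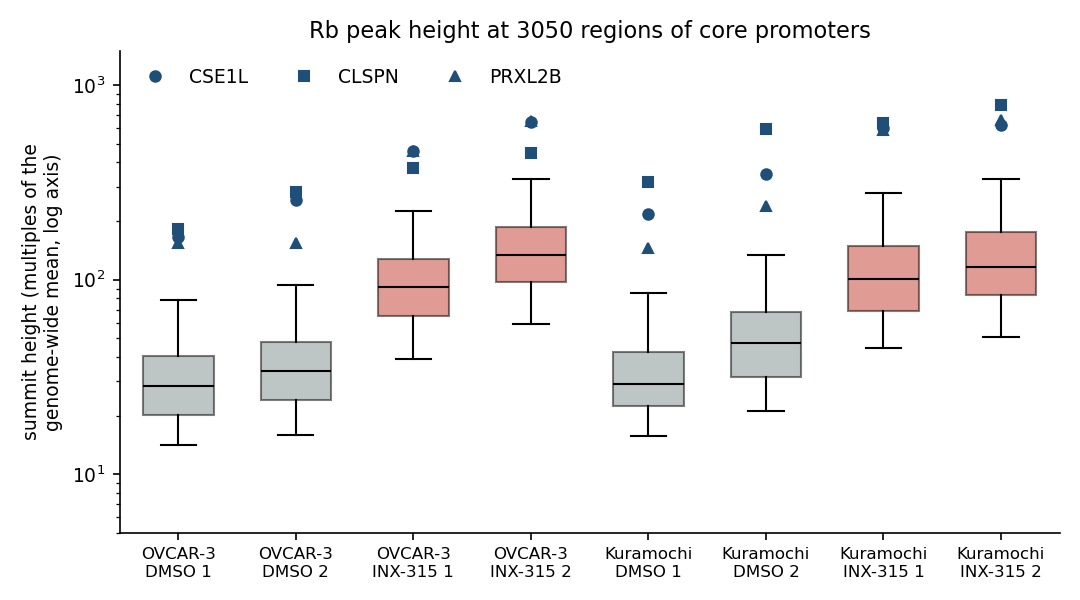
Rb peak height at the summit (y axis, multiples of the genome-wide mean, log scale) at 3050 core regions in each of the 8 Rb libraries (x axis). Boxes give median and quartiles, whiskers the 5th and 95th percentiles, and symbols 3 of the highest promoters. The medians were 28.3 to 47.4 under DMSO (grey) and 91.4 to 133 under INX-315 (red).

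The highest core promoters included several genes of DNA replication. CSE1L, which encodes the exportin that recycles importin alpha, ranked first by its mean percentile within the lists. Its heights were 166 and 257 in OVCAR-3 DMSO, 460 and 642 in OVCAR-3 INX-315, 218 and 348 in Kuramochi DMSO and 603 and 621 in Kuramochi INX-315. The 4 INX-315 libraries lay above the 4 DMSO libraries without overlap. Next came CLSPN, the gene of claspin, a checkpoint mediator that travels with the fork, at 182 and 283 rising to 375 and 447 in OVCAR-3 and 319 and 593 rising to 637 and 787 in Kuramochi. Here the treatments overlapped across lines, since Kuramochi DMSO 2 exceeded both OVCAR-3 INX-315 libraries. DTL, a substrate receptor for the destruction of CDT1, and INTS7, of the Integrator complex, share a region with 127 and 185 against 372 and 499 in OVCAR-3 and 240 and 334 against 575 and 732 in Kuramochi. CCNE2, the gene of cyclin E2, shares its region with NDUFAF6, with heights of 127 and 148 against 303 and 409 in OVCAR-3 and 261 and 319 against 709 and 723 in Kuramochi. At both shared regions INX-315 exceeded DMSO within each line. The remaining genes of the first 10 were NASP (a histone H3 and H4 chaperone), PRXL2B, HNRNPA0 (an RNA-binding protein) and LIG1, whose product joins Okazaki fragments.

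Of 201 genes in 7 lists written for known roles of Rb and E2F targets, 146 (72.6%) were core genes, against 18.8% of all protein-coding genes. Another 54 had a promoter peak in 1 to 7 libraries. Lists and members were written with earlier results of these data known, so these shares are descriptive. The median height over the regions of the lists was 82.6, compared with 60.2 for the regions of all core genes, and 30 of 144 list regions (20.8%) had an E2F string within 100 bp of the summit, compared with 6.68%. Several list regions also serve other core genes, and their values are not assigned to any single gene. Among those named below, MCM2 shares with TPRA1, MCM4 with PRKDC, PRIM1 with HSD17B6, LIG1 with ZSWIM9 and CDK2 with PMEL. LIN52 shares with ALDH6A1, BRCA1 with NBR1, SMC1A with RIBC1, NUSAP1 with OIP5, and FOXM1 with RHNO1 and TULP3.

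Because nearly all regions rose, a relative change was also computed, after each library was centred on its median region, and it asks which promoters rose more or less than the typical one. Of the 3050 core regions, 120 rose more and 223 rose less than the median region (limma, adjusted p under 0.05), or 3.93% and 7.31%. Over all 3269 regions, 130 rose more (3.98%) and 258 rose less (7.89%). The core regions make up most of these 3269, so the core and overall shares could hardly differ. With each peak's own local background as divisor in place of the genome-wide mean, 10 core regions rose more and 48 less, of which 9 and 43 were also among the 120 and 223. In both treatments of a line, the control behind this background was the same IgG2a library from DMSO-treated cells. A background that differs between treatments would therefore not be corrected by it. Without OVCAR-3 INX-315 replicate 2 the counts were 28 and 91, and without Kuramochi INX-315 replicate 1 they were 64 and 141. The 223 regions that rose less had a median fold of 1.92 (range 1.01 to 2.23) and the 120 that rose more one of 5.15 (4.67 to 6.89). In the regions that rose less, median DMSO heights were already higher, at 40.4 and 49.9 in OVCAR-3 and 40.4 and 71.1 in Kuramochi, than in those that rose more (24.3, 29.9, 24.7 and 42.1). Under INX-315 the order was the opposite, with 78.3, 109, 86.4 and 107 against 127, 194, 138 and 157. A measured level enters both the height and the change, and the part of the DMSO level in the result was not tested.

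The relative change of regions with an E2F string near the summit was lower than that of the other core regions. The 207 core regions with an E2F string within 100 bp of the summit had a median relative log2 change of −0.25, against −0.02 in the 2843 without. They were called to have risen less in 39 cases (18.8%) against 184 (6.47%), and to have risen more in 3 cases (1.45%) against 117 (4.12%). Their median DMSO heights were higher, at 34.4, 39.9, 35.9 and 57.9 against 28.3, 31.9, 29.2 and 44.8. Under INX-315 they were 88.1, 131, 114 and 134 against 91.4, 133, 98.8 and 116, higher in Kuramochi and slightly lower in OVCAR-3. With the local background as divisor, 12 of the 207 regions were called to have risen less, 11 of them among the 39, against 36 of the others, with medians of −0.24 and −0.03. Without OVCAR-3 INX-315 replicate 2 the counts were 18 and 73. Some of the 2843 regions held a string further out. With the limit at 250 bp, 549 regions had a median of −0.20, against 0.004 in the other 2501. Of these 2 groups, 15.1% and 5.60% were called to have risen less.

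**Figure D4:**
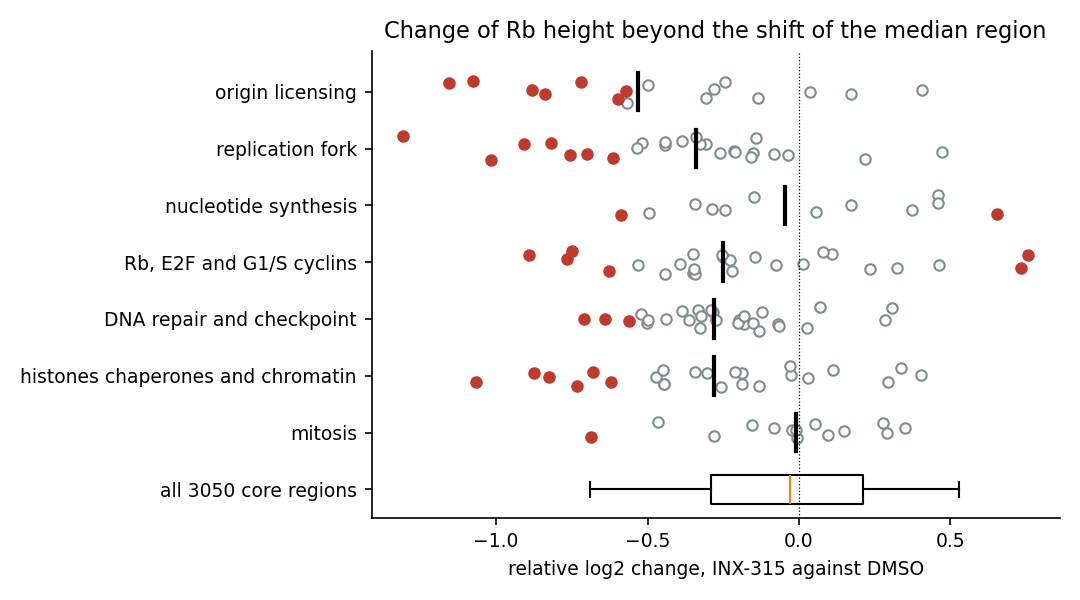
Relative log2 change of Rb height, INX-315 against DMSO (x axis), at the core regions of 7 gene lists (y axis). Each point is a region, filled in red where the adjusted p was under 0.05, black bars are list medians, and the box below gives the quartiles with whiskers at the 5th and 95th percentiles of all 3050 core regions. The list medians ran from −0.53 for origin licensing to −0.01 for mitosis.

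Origin licensing, the loading of the MCM helicase onto DNA before S phase, was almost wholly inside the core set, with 16 of 17 genes. ORC5, an origin recognition subunit, was the exception with peaks in 5 libraries. The licensing regions had a median fold of 2.23 and a median relative log2 change of −0.53, and 7 of 16 rose less than the median region while none rose more. An E2F string lay within 100 bp of the summit in 10 of the 16. MCM7, a helicase subunit that shares its region with AP4M1, had heights of 111 and 157 in OVCAR-3 DMSO, 232 and 292 in OVCAR-3 INX-315, 115 and 219 in Kuramochi DMSO and 225 and 269 in Kuramochi INX-315. INX-315 libraries were higher in both lines, by 1.97-fold and 1.55-fold, and the relative log2 change was −0.88 (adjusted p = 0.0037, limma). CDC6, the loader, gave 64.7 and 75.8 against 137 and 174 in OVCAR-3 and 115 and 174 against 259 and 347 in Kuramochi, a relative change of −0.57 (adjusted p = 0.0341, limma). GMNN, the gene of the licensing inhibitor geminin, was the highest of the list by mean height and did not pass the test, at 82.9 and 79.8 against 219 and 307 in OVCAR-3 and 106 and 224 against 395 and 435 in Kuramochi. The other regions that rose less were those of MCM2, MCM4, MCM5, MCM6 and CDT1, with relative changes of −1.08, −0.60, −0.84, −0.72 and −1.16. CDT1, the second licensing loader, was 1 of the 11 core regions whose height was not called to have changed. With the local background as divisor, 2 of these 7 remained called and the median was −0.36, and without OVCAR-3 INX-315 replicate 2, 4 did.

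Replication fork genes were core genes in 25 of 35 cases, and 7 of their 25 regions rose less and none more (median relative log2 change −0.34). PCNA, the sliding clamp, reached 101 and 154 in OVCAR-3 DMSO, 316 and 352 in OVCAR-3 INX-315, 115 and 224 in Kuramochi DMSO and 235 and 371 in Kuramochi INX-315. It increased within each line, narrowly in Kuramochi, and its relative change of −0.54 missed the threshold (adjusted p = 0.0666, limma). LIG1 rose 2.93-fold and 2.90-fold, close to the typical region. The called regions were those of CLSPN (−0.91), POLA2 and PRIM1 of the polymerase alpha and primase complex (−1.31 and −1.02), MCM10 (−0.82), RFC2 of the clamp loader (−0.76), TOPBP1, an activator of the ATR kinase (−0.70), and POLD3 of polymerase delta (−0.62). Outside the core set, PRIM2, POLE3, GINS4, RFC1 and TIPIN had peaks in 7 libraries, and PRIM2, POLE3 and RFC1 lacked one in Kuramochi DMSO 1. Of the 7 called regions, 3 remained called with the local background as divisor and 4 without OVCAR-3 INX-315 replicate 2 or without Kuramochi INX-315 replicate 1.

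Nucleotide synthesis genes were core genes in 13 of 16 cases, and their relative change was close to 0 (median −0.05, 1 lower and 1 higher of 12 regions). RRM2, a subunit of ribonucleotide reductase, had 97.0 and 136 in OVCAR-3 DMSO, 251 and 397 in OVCAR-3 INX-315, 69.6 and 108 in Kuramochi DMSO and 230 and 236 in Kuramochi INX-315, with all 4 INX-315 values above all 4 DMSO values. TYMS, thymidylate synthase, had 97.0 and 95.7 against 215 and 349 in OVCAR-3 but 31.5 and 76.4 against 91.4 and 88.0 in Kuramochi, and was lower in Kuramochi by 1.41 on the relative log2 scale (adjusted p = 1.36e-05, limma). Line differences moved with the local background, as described further on, and its part in the TYMS difference was not tested. CTPS1, which makes CTP, rose more than the typical region, from 40.4 and 23.9 to 144 and 233 and from 65.2 and 81.6 to 282 and 361 (relative change 0.66, adjusted p = 0.0454, limma). DUT, which removes dUTP, was the region that rose less (−0.59). Neither call was made with the local background as divisor or without OVCAR-3 INX-315 replicate 2.

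Among Rb, E2F and G1/S cyclin genes, 25 of 34 were core genes, and of their 25 regions 4 rose less and 2 more. RBL1, the gene of the Rb relative p107, had 139 and 157 in OVCAR-3 DMSO, 215 and 361 in OVCAR-3 INX-315, 141 and 174 in Kuramochi DMSO and 319 and 412 in Kuramochi INX-315, with all 4 INX-315 values on top and a relative change of −0.63 (adjusted p = 0.0343, limma). E2F8, an atypical repressing E2F, changed by −0.89, and the DREAM subunit genes LIN37 and LIN52 by −0.75 and −0.77. The other direction was taken by CCNA2, the gene of cyclin A2 (0.76, adjusted p = 0.0253, limma), and by TFDP2, a DP partner of E2F (0.73), with folds of 5.45 and 5.36. RB1 itself rose 2.91-fold and CDK2 2.77-fold, both with a relative change that missed the threshold (adjusted p = 0.681 and 0.398, limma). With the local background as divisor none of the 25 regions was called in either direction. Without OVCAR-3 INX-315 replicate 2 there were 2 lower and none higher, and without Kuramochi INX-315 replicate 1 there was 1 lower and none higher. CDK4, CDK6, CCND1 and CDKN1A, which act in the cyclin D branch or inhibit cyclin-dependent kinases, had peaks in 6, 4, 5 and 4 libraries, and E2F6 in 7. Other genes of these classes, CCND3, CDKN1B, CDKN2C and CDKN2D, had peaks in all 8 libraries and were core genes.

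DNA repair and checkpoint genes had the highest median height of the 7 lists (105), with 28 of 33 in the core set and 3 regions that rose less. FANCG, of the Fanconi anaemia core complex, stood at 164 and 185 in OVCAR-3 DMSO, 313 and 445 in OVCAR-3 INX-315, 128 and 203 in Kuramochi DMSO and 356 and 361 in Kuramochi INX-315. No INX-315 library was below a DMSO library, and the relative change was −0.56 (adjusted p = 0.0373, limma). CHEK1, a checkpoint kinase gene, was also among the called regions (−0.64). BRCA1 rose 2.64-fold with a relative change of −0.29 (adjusted p = 0.363, limma). Of the 3 calls, 1 remained with the local background as divisor, where FANCG had an adjusted p of 0.982 (limma), and none remained without OVCAR-3 INX-315 replicate 2 or without Kuramochi INX-315 replicate 1. FANCB, HUS1 and FANCD2 had peaks in 5 libraries and PALB2 in 4.

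Histone chaperone and chromatin genes were core genes in 25 of 30 cases, with 6 of 24 regions that rose less and none more. NASP had 150 and 213 in OVCAR-3 DMSO, 336 and 411 in OVCAR-3 INX-315, 182 and 337 in Kuramochi DMSO and 454 and 598 in Kuramochi INX-315. Values rose within each line, and Kuramochi DMSO 2 was level with OVCAR-3 INX-315 1. Its relative change was −0.62 (adjusted p = 0.0256, limma). The largest in size was ANP32E, a chaperone of the variant H2A.Z (−1.07), followed by the maintenance DNA methyltransferase DNMT1 (−0.88), SUPT16H of the FACT complex (−0.83), HAT1, a histone acetyltransferase (−0.73), and the cohesin gene SMC1A (−0.68). EZH2, the methyltransferase of Polycomb repressive complex 2, went from 72.8 and 91.7 to 199 and 314 in OVCAR-3 and from 148 and 195 to 373 and 496 in Kuramochi, with no overlap and a relative change of −0.21 (adjusted p = 0.43, limma). Of the 6 calls, 3 remained with the local background as divisor and 3 without OVCAR-3 INX-315 replicate 2.

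Mitotic genes differed from the other lists in that only 14 of 36 were core genes and 22 had peaks in 1 to 7 libraries. This share of 38.9% was still above the 18.8% of all genes. Their core regions had a median height of 62.0, near that of all core genes, and a median relative change of −0.01, with FOXM1, a transcription factor of G2 and M phase genes, as the 1 region that rose less (−0.69), a call not made with the local background as divisor or without OVCAR-3 INX-315 replicate 2. NUSAP1, a spindle protein gene, had 60.6 and 61.8 in OVCAR-3 DMSO, 212 and 283 in OVCAR-3 INX-315, 62.9 and 86.9 in Kuramochi DMSO and 175 and 204 in Kuramochi INX-315, without overlap of the treatments. PLK4, the kinase of centriole duplication, followed the same order with 54.6 and 69.8 against 235 and 209 in OVCAR-3 and 53.9 and 73.7 against 126 and 120 in Kuramochi. TTK, ECT2, CDC25C, CDC25B and CENPA had peaks in 7 libraries.

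Over all 7 lists, 29 of 144 regions rose less (20.1%) and 3 rose more, against 7.25% and 118 of the 2995 regions of all core genes, and 110 of the 144 relative changes were negative. With the local background as divisor, 9 of the 29 remained called and none of the 3, and without OVCAR-3 INX-315 replicate 2 there were 13 and none. The median over the lists was −0.26 and −0.22 under these settings, compared with −0.26 in the fit reported.

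Taking the highest region of each gene, the 5 core promoters with the lowest relative change were FAM111B, DYNC2I2, POLA2, CSTF3 and ZSCAN5A. A further region of FUZ, a planar cell polarity gene with 3 core regions, was lower still at −1.67 and was singled out after its value was seen. FAM111B, the gene of a serine protease known as a cell cycle gene, had 121 and 114 in OVCAR-3 DMSO, 121 and 124 in OVCAR-3 INX-315, 89.9 and 153 in Kuramochi DMSO and 168 and 153 in Kuramochi INX-315. Its treatments were nearly level, with a 1.04-fold change in OVCAR-3 and 1.37-fold in Kuramochi and a relative log2 change of −1.43 ± 0.20 (SE, adjusted p = 0.000396, limma). DYNC2I2, a subunit of the ciliary dynein 2 motor, had 36.4 and 33.9 against 45.7 and 47.6 in OVCAR-3 and 29.2 and 52.7 against 51.9 and 46.3 in Kuramochi, with a relative change of −1.32 ± 0.18 (SE, adjusted p = 0.000396, limma). POLA2, which shares its region with ENSG00000285816, had 40.4 and 47.9 against 65.3 and 49.9 in OVCAR-3 and 53.9 and 60.6 against 54.3 and 102 in Kuramochi. DMSO and INX-315 values overlapped in Kuramochi at both DYNC2I2 and POLA2. CSTF3 and ZSCAN5A changed by −1.28 and −1.26, and all 5 remained called with the local background as divisor, while ZSCAN5A missed the threshold without OVCAR-3 INX-315 replicate 2 (adjusted p = 0.0565, limma). For none of the 5 was the unscaled height called to have changed, which does not show that it was equal.

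At the other end stood core promoters with mostly low DMSO heights. The region shared by JMJD1C, a histone demethylase family gene, and REEP3 had 14.1 and 19.9 in OVCAR-3 DMSO, 108 and 219 in OVCAR-3 INX-315, 20.2 and 13.2 in Kuramochi DMSO and 81.5 and 88.0 in Kuramochi INX-315. INX-315 libraries were 9.14-fold and 5.19-fold higher with no overlap, and the relative log2 change was 1.10 ± 0.24 (SE, adjusted p = 0.00761, limma). IL1RAP, the co-receptor of interleukin 1, followed with 22.2 and 23.9 against 127 and 174 in OVCAR-3 and 13.5 and 13.2 against 121 and 74.1 in Kuramochi (relative change 1.07 ± 0.22, adjusted p = 0.00567, limma). DGCR6L, IQUB and WDFY2 had relative changes of 1.05, 1.03 and 1.00. DMSO heights were 11.2 to 63.2 over these 5 regions, and only WDFY2 in Kuramochi DMSO 2, at 63.2, exceeded that library's median core region. With the local background as divisor, IQUB and WDFY2 remained called, whereas JMJD1C, IL1RAP and DGCR6L missed the threshold (adjusted p = 0.0711, 0.075 and 0.0513, limma). FUZ aside, only 4 of the 10 regions named at both ends had a q-value of at most 0.001 in every library. These 4 stayed in the test with that stricter cut and remained called.

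The change under INX-315 was not shown to differ between the lines at any core region. The interaction of line and treatment was called at 0 of the 3269 regions tested (0%), with 310 regions at an unadjusted p under 0.05 (limma). Of the 343 core regions with a called relative change, all 343 had the same sign in both lines, a feature that the shared test favours, against 60.2% of the core regions not called.

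Many more core regions differed between the lines. On the relative scale, 685 core regions were higher in Kuramochi (22.5%) and 628 higher in OVCAR-3 (20.6%, limma, adjusted p under 0.05). The shares of all regions tested, which are mostly the core regions, were 22.6% and 20.4%. CTDNEP1 and ELP5, a divergent pair that encodes a nuclear envelope phosphatase and an Elongator subunit, share a region with 26.3 and 29.9 in OVCAR-3 DMSO, 71.8 and 117 in OVCAR-3 INX-315, 148 and 232 in Kuramochi DMSO and 445 and 537 in Kuramochi INX-315. Every Kuramochi library exceeded every OVCAR-3 library, with a difference of 2.45 ± 0.16 on the relative log2 scale (SE, adjusted p = 7.85e-09, limma). RASSF8, a gene of the Ras association domain family, had 22.2, 19.9, 75.0 and 117 in OVCAR-3 and, in the same order, 157, 227, 519 and 695 in Kuramochi (2.80 ± 0.17, adjusted p = 3.36e-09, limma). MED21, a Mediator subunit gene, and BHLHE41, a circadian repressor gene, differed by 2.84 and 2.54. In the other direction LENG9 had 72.8, 97.7, 254 and 309 in OVCAR-3 and 18.0, 15.8, 46.9 and 55.6 in Kuramochi, or −2.51 ± 0.20 (SE, adjusted p = 5.72e-08, limma). Every OVCAR-3 library exceeded every Kuramochi library at LENG9. The regions of KCTD21 and USP35, PRPF31 and TFPT, MBOAT7 and TSEN34, and AAMDC and RSF1 followed with −2.39, −2.26, −2.20 and −2.17.

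**Figure D5:**
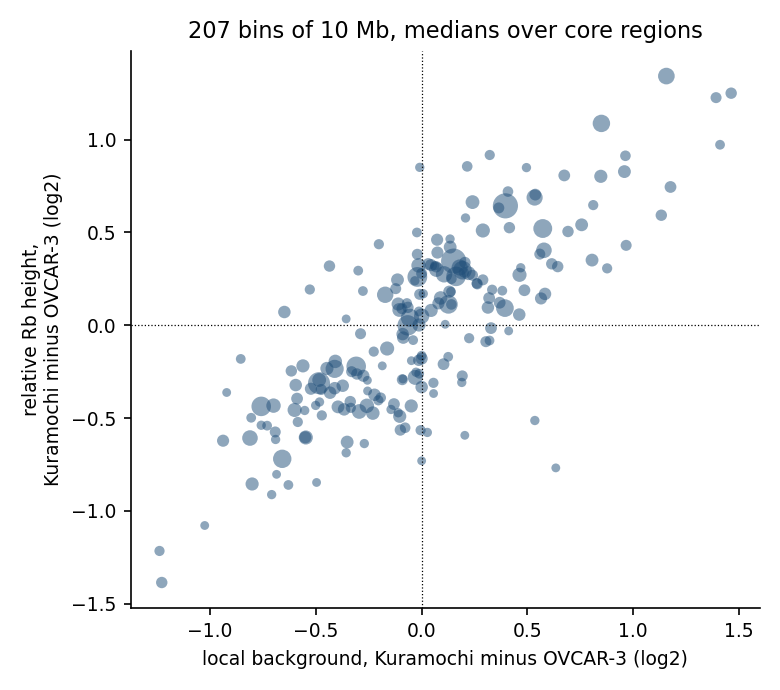
Median relative log2 difference of Rb height, Kuramochi minus OVCAR-3 (y axis), against the median log2 difference of local background between the lines (x axis), in 207 bins of 10 Mb with at least 5 core regions. Each point is a bin and its area grows with the number of regions. Bins with a higher background in a line tended to have higher Rb peaks in it (Spearman's rho 0.743 over bins).

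These differences between lines ran in blocks along chromosomes, and the local background moved with them. Neighbouring core regions resembled each other in the line difference (Pearson's r 0.64 over 3027 pairs of neighbours) and hardly in the relative change under INX-315 (0.07). The local background, taken by the peak caller from the control library or the genome-wide mean, differed between lines in the same direction in 51 of the 58 bins of 10 Mb whose median line difference was beyond 0.5 in size. In the first 10 Mb of chromosome 17, which hold CTDNEP1 and ELP5, 28 core regions had a median line difference of 1.34 beside a background difference of 1.16, with 24 higher in Kuramochi and none higher in OVCAR-3. In the next 10 Mb, 11 core regions had −1.39 beside −1.23. On chromosome 8 from 140 to 150 Mb all 31 core regions were higher in Kuramochi, with 1.09 beside 0.85. On chromosome 21 from 30 to 40 Mb, 14 of 16 were higher in OVCAR-3, with −0.85 beside −0.80. Not all bins followed this, since chromosome 11 from 90 to 100 Mb had 0.85 beside −0.01.

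With the local background as divisor, 521 of the 1313 core regions with a called line difference remained called, and 384 of them kept their sign. CTDNEP1 and ELP5 kept a difference of 0.99 (adjusted p = 0.0021, limma). LENG9 turned to 0.83 (adjusted p = 0.0117, limma), and RASSF8 and BHLHE41 turned to −0.46 and −0.88, neither past the threshold (adjusted p = 0.214 and 0.0628, limma). PRPF31 with TFPT and MBOAT7 with TSEN34 also changed sign, to 0.37 and 0.09. MED21, KCTD21 with USP35, and AAMDC with RSF1 kept their sign but lost their call (adjusted p = 0.463, 0.511 and 0.139, limma). All Rb libraries of a line share a single IgG2a control for this background. The p-values with it as divisor therefore do not cover the error of that control. The part of the local background in the line differences was not tested further.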

How the data were processed

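Rb was profiled by CUT&RUN in 8 Rb and 2 IgG2a libraries, grouped by the sample labels. The authors trimmed reads with BBDuk, aligned them to hg38 (Bowtie2 2.3.4.1 in the submitters' processing notes), kept duplicates and called peaks in each library with MACS2 2.2.7.1 (paired-end mode, q-value 0.05, IgG2a library of the line as control). The deposited lists give each peak a fold enrichment, which is a linear ratio, then a p-value and a q-value, both as −log10 of the number, and the offset of the summit. Reads were not used here, so the study's count test on reads was not made.

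Because fold enrichment equals (fragments + 1)/(local background + 1) and the listed p-value is a Poisson tail probability for both numbers, the fragments at each summit were recovered (relative tolerance 3e-05). Their number over the library's genome-wide mean per base is the height. The lists do not give this mean, and it was inferred as the lowest recovered background that recurred among a library's peaks. Where a gene had several regions, the highest was used. Log2 heights of 3269 regions with a peak in all 8 libraries were fitted with limma 3.58.1 in R 4.3.3 with terms for line and treatment. Relative heights were centred on each library's median over these regions. Adjusted p-values are Benjamini-Hochberg values over all regions. In simulated data with 100 changed regions of each size among 3269, 68% of relative log2 treatment changes of 1 and 100% of changes of 2 were recovered, and 0.293% of unchanged regions were called. The simulation had no differences between lines, and its spread was not matched to the measured replicate SD of 0.277. Its rates hold for that setting only. Promoters followed GENCODE 44, whose assembly held every peak of the 23 chromosomes.

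The members and gene lists were chosen with earlier results of these data known. The genes named were the 10 highest by mean percentile, the 4 highest members and up to 5 non-members of each list, the 5 regions with the largest relative change each way past the threshold for treatment and for line with equal sign in both strata, and the genes nearest the rule's edge. Other members of the lists were named after their values were seen, where they passed the test or are well known. Some genes that this rule names are not reported here. The alternatives tried were the deposited fold enrichment, the local background as divisor, trended robust spread, quantile normalisation, a stricter q-value of 0.001, a replicate block, other promoter definitions and leaving out each replicate. Intervals cover counting error only.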

Additional observations from a re-analysis of the deposited data

Results flagged for a closer look

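CCNE1, the gene of cyclin E1, was flagged because its relative change under INX-315 went opposite ways in the lines. The change was −0.40 on the relative log2 scale in OVCAR-3 and 0.43 in Kuramochi, and every library followed that order. Heights were 125 and 153 in OVCAR-3 DMSO, 303 and 459 in OVCAR-3 INX-315, 44.9 and 57.9 in Kuramochi DMSO and 193 and 208 in Kuramochi INX-315, so Rb rose in both lines, by 2.69-fold and 3.93-fold. The difference between the lines' changes was 0.84 and missed the threshold (interaction in limma, adjusted p = 0.449). It was the only one of 52 named regions with this pattern.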

How the results depend on the processing

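The number of core genes was 2665 with peak lists cut to equal length, 3238 with a q-value of at most 0.001 and 3762 to 4713 when 1 library was left out, all within 1.5 times the main number. Regions called higher under INX-315 numbered 3110 to 3258 on all 3269 regions, with none lower. The size of the rise depended on the measure, with a median log2 change of 1.66 for height and 1.31 for the deposited fold enrichment. Calls of relative treatment change moved most. The main number of 388 (130 higher, 258 lower) became 67 (10 and 57) with the local background as divisor, and 139 (30 and 109) without OVCAR-3 INX-315 replicate 2, 242 without Kuramochi INX-315 replicate 1 and 250 without replicate 2, so the range over left-out libraries was 139 to 351. Of 343 called core regions, 341 kept their sign with the local background and 52 their call. Quantile normalisation gave 157 higher and 197 lower, or 44.4% higher against 33.5%, and moved the median relative change from −0.03 to 0.02. Line differences numbered 1405, and 1048 to 1440 under the alternatives, with 5 named regions reversed by the local background (0.83, 0.37, 0.093, −0.46 and −0.88). The interaction had 0 calls throughout, with 194 to 367 regions at an unadjusted p under 0.05. The share of core promoters with an E2F string was 9.30%, and 31.3% with the shorter E2F string, while 6.66% of core regions held one in the 200 bp centred on the summit. Among named regions of the lists, each of the 8 with a called relative change missed the threshold under at least 1 alternative.

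Deviations of equally numbered replicates correlated at −0.0454 to 0.0766 between groups, so there was no sign that the numbers pair the libraries. These values cannot show whether equally numbered libraries were handled together. A replicate block within line gave 352 relative treatment calls, 1349 line calls and 0 interaction calls, and 3256 calls for height. The depth of 13 to 56 fragments at the median core summit limits statements on single regions.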

Other observations

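Gene families outside the lists entered the core set to different extents, set beside 18.8% of all protein-coding genes. Of the cytosolic ribosomal protein genes, which are highly transcribed, 10 of 87 were core genes, as were 17 of 78 mitochondrial ribosomal protein genes, 13 of 39 proteasome genes and 5 of 37 genes of the NDUF family of respiratory complex I. Zinc finger genes with a ZNF symbol were core genes in 87 of 508 cases and solute carriers in 46 of 337. Among developmental and tissue-restricted families, 1 of 39 HOX genes, 0 of 55 keratin genes and 0 of 415 olfactory receptor genes were core genes.

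Histone genes contributed 19 of 93 members through 12 regions. These had a median relative log2 change of −0.45 under INX-315, and 9 of the 12 were higher in Kuramochi, against 22.6% of all regions tested. On chromosome 6 from 20 to 30 Mb, where many histone genes lie, 13 of 16 core regions were higher in Kuramochi, with a median line difference of 0.80 beside a local background difference of 0.85, and the part of the background in the result was not tested. An E2F string lay within 100 bp of the summit in 5 of the 12. Near-identical copies of histone genes lie close together, and how the alignment placed reads shared between copies was not tested.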
